A study of Mus musculus with 7 samples.

Results

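Lag3, Havcr2, Tigit, Cd96, Cd160, Cd244 and Btla encode inhibitory receptors of T cells that lie outside the CD28 family, the family of CTLA-4 and PD-1. They were taken as the rows of the deposited gene table that bear these names, 7 of 23420 gene rows, and all 7 passed the filter on low values (10 or more normalized counts in 3 or more of the libraries). Their transcripts were followed through bulk RNA sequencing of cardiac ventricle from 7 mice aged 3 to 6 weeks. The 4 control mice were Ctla4+/+;Pdcd1-/- and were described as unaffected. The 3 ICI-myocarditis mice, a genetic model of heart inflammation caused by immune checkpoint inhibitors (ICI), were Ctla4+/-;Pdcd1-/-. Loss of Pdcd1, the gene of PD-1, was therefore common to both groups, no animal was treated with a drug or antibody, and no Pdcd1-sufficient heart was among the samples. Genotype at Ctla4 and the disease state changed together and cannot be told apart. The comparison asked how the remaining inhibitory receptors stood in hearts with 1 lost copy of Ctla4.

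Inhibitory receptors damp the signal of the T cell receptor, most of them through short tyrosine motifs in their tails that recruit phosphatases. LAG-3 resembles CD4 and binds MHC class II, TIM-3 (encoded by Havcr2) binds galectin-9, CEACAM1 and HMGB1 among others, and TIGIT and CD96 compete with the activating receptor CD226 for PVR and nectins. CD160 and BTLA share the ligand HVEM (encoded by Tnfrsf14), and 2B4 (encoded by Cd244) is a SLAM family receptor that binds CD48. Most of these genes are induced when T cells are activated and stay on in T cells that meet antigen for a long time. None is confined to T cells: TIM-3 is also made by macrophages and dendritic cells, 2B4, CD96, TIGIT and CD160 by natural killer (NK) cells, and BTLA by B cells and dendritic cells.

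Libraries held 20931730 to 39037176 recovered reads each. The tissue matched its label: Myh6, the heart's main myosin heavy chain, lay between 402804 and 1196030 normalized counts in all 7 libraries, and thymus markers summed to at most 16.7. The library of control 2 stood apart from the other controls: its T cell receptor complex genes (Cd3d, Cd3e, Cd3g and Cd247) summed to 636.5 normalized counts, against 76.3 to 138.5 in the other 3 controls and 2933 to 4214 in ICI-myocarditis. Each receptor's fold change and the main comparisons of levels are therefore given with and without it. Ctla4, the gene that sets the groups apart, lay at 29.2 to 113 normalized counts in the Ctla4+/+ controls and 251 to 373 in the Ctla4+/- hearts (limma adjusted p = 0.00849), so its level was higher where a copy was lost. Pdcd1 itself was listed at 2.50 to 244 normalized counts in controls and 1096 to 1481 in ICI-myocarditis in spite of the Pdcd1-/- label, and the table does not tell which part of the gene those reads cover. In bulk RNA, fewer cells of a type and less RNA per cell cannot be told apart, and p-values measure the spread between these animals. Values below are the authors' normalized counts, and each fold change compares ICI-myocarditis with control as a difference of mean log2(normalized count + 1). The added 1 makes changes at low counts smaller on this scale. For all 7 receptors the values were nonetheless larger than those the authors deposited, as 4.45 against 3.44 for Cd96.

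All 7 receptor genes were higher in ICI-myocarditis. Lag3, Havcr2 and Tigit rose by 4.53 to 4.77 on the log2 scale, Cd96 and Cd244 by 4.28 to 4.45, and Cd160 and Btla by 2.66 each. Across the 7 the median was 4.45, against -0.02 over all 15258 genes tested. All 7 passed limma's test at an adjusted p of 0.05, where 15.7% of all genes tested passed in either direction and 11.7% passed as higher. In all 7, every ICI-myocarditis heart lay above every control heart, which held for 17.3% of all genes tested. Without control 2 or control 4 all 7 still passed. Fewer passed without other libraries: 3 without ICI-myocarditis heart 3, 5 without heart 1, and 6 without heart 2, control 1 or control 3.

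**Figure D1:**
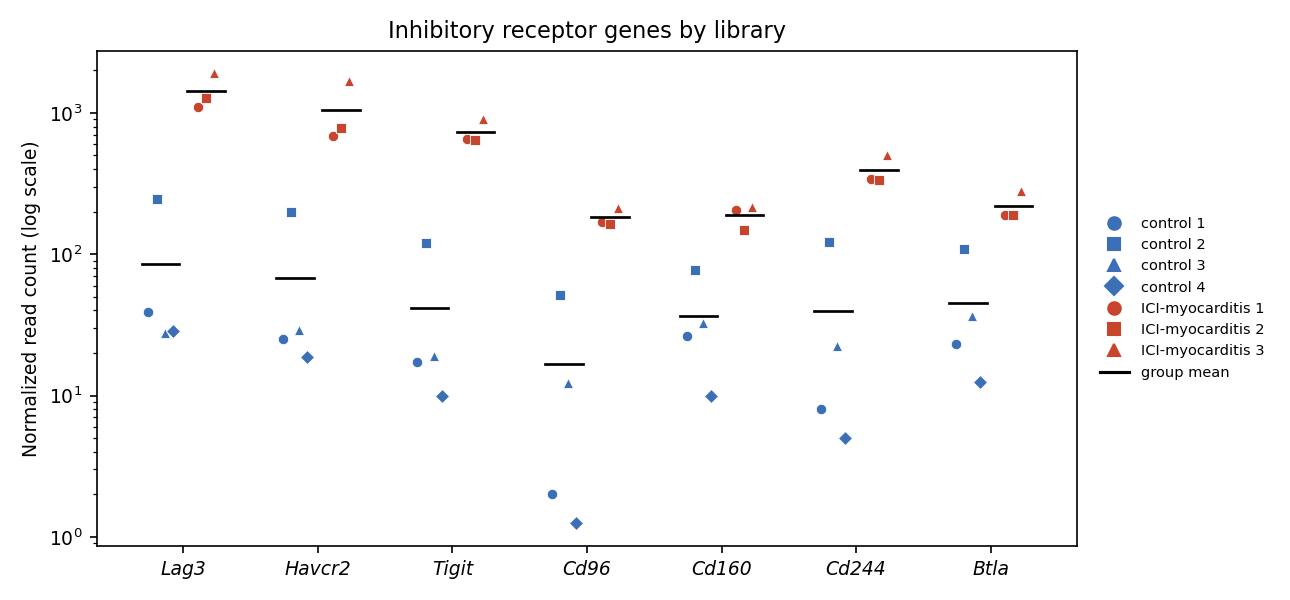
Normalized counts of the 7 receptor genes in each library on a log axis, with a point per control (blue) or ICI-myocarditis heart (red) and a line at each group mean. Every ICI-myocarditis point lies above every control point of the same gene, and control 2 is the highest control for all 7.

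Lag3, the MHC class II receptor, stood at 39.3, 247, 27.9 and 28.8 normalized counts in controls 1 to 4 and at 1099.9, 1268 and 1906 in ICI-myocarditis hearts 1 to 3. Control 2 held 7.71 times the mean of the other 3 controls, yet the lowest ICI-myocarditis heart was 4.46 times higher still. Means were 85.7 ± 107 (SD, n = 4) and 1425 ± 426 (SD, n = 3), a log2 fold change of 4.68 (SE 0.688, adjusted p = 0.00411 in limma). Leaving out control 2 gave 5.41 (limma adjusted p = 1.01e-05). The gap of control 2 from the next control spanned 0.845 of the range of the 4 controls on the log2 scale, the one such gap that Dixon's test picked out among the 7 receptors.

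Havcr2 measured 25.2, 197, 29.0 and 18.8 normalized counts in controls 1 to 4, and 680.4, 783 and 1687 in ICI-myocarditis hearts 1 to 3. The groups did not overlap, and within ICI-myocarditis heart 3 stood well above the others. The log2 fold change was 4.53 (SE 0.736, adjusted p = 0.00549 in limma), and 5.27 without control 2 (limma adjusted p = 3.20e-05). TIM-3 being made by myeloid cells too, macrophage genes are given beside it: Csf1r, the receptor of the macrophage growth factor, stood at 4991, 6590 and 12519 normalized counts in the same 3 hearts. Heart 3 was the highest for all 7 receptors, 12 of 13 T cell genes and 8 of 8 macrophage genes alike (41.0% of all genes tested), so its rank does not tell these sources apart. The 8 macrophage markers summed to 8881 to 11369 in controls and 34128 to 68790 in ICI-myocarditis. The part of myeloid cells in the Havcr2 result was not tested.

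Tigit lay at 17.1, 120.9, 19.0 and 10.01 normalized counts in controls 1 to 4 and at 654, 638 and 899 in ICI-myocarditis hearts 1 to 3. Its lowest ICI-myocarditis heart was 5.28 times as high as control 2, the widest such margin among the 7. The log2 fold change was 4.77 (SE 0.707, adjusted p = 0.00422 in limma), and 5.51 without control 2 (limma adjusted p = 1.25e-05). Lag3, Havcr2 and Tigit passed the test in all 17 alternative analyses, with log2 fold changes of 3.92 at the lowest, and were the only members that passed without ICI-myocarditis heart 3.

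Cd96 and Cd244 were near the limit of detection in 2 of the controls. Cd96 was listed at 2.02, 51.8, 12.3 and 1.25 normalized counts in controls 1 to 4, which correspond to 2, 42, 11 and 1 reads, and at 169, 165 and 214 in ICI-myocarditis. Cd244 stood at 8.07, 122, 22.3 and 5.005 normalized counts in controls and at 342, 333 and 507 in ICI-myocarditis. Control 2 held 9.995 times the mean of the other controls for Cd96 and 10.3 times for Cd244, the widest such ratios of the 7 genes. The groups did not overlap in either gene. Cd96 rose by 4.45 on the log2 scale (SE 0.971, adjusted p = 0.0155 in limma) and Cd244 by 4.28 (SE 0.890, adjusted p = 0.0127 in limma). Without ICI-myocarditis heart 3 neither passed (limma adjusted p = 0.0637 for Cd96 and 0.0552 for Cd244), while without control 2 both passed with log2 fold changes of 5.34 and 5.16. With edgeR on the recovered reads the increases were 3.41 and 3.29. Their standard errors were the largest of the 7.

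Cd160 and Btla, the HVEM receptors, rose least. Cd160 stood at 26.2, 77.7, 32.4 and 10.01 normalized counts in controls 1 to 4 and at 205, 149 and 217 in ICI-myocarditis, and Btla at 23.2, 109, 36.8 and 12.5 against 188, 188 and 280.4. Control 2 came within a factor of 1.91 of the lowest ICI-myocarditis heart for Cd160 and 1.73 for Btla, without overlap. Both had a log2 fold change of 2.66 (SE 0.581, adjusted p = 0.0156 in limma for Cd160; SE 0.623, limma adjusted p = 0.0206 for Btla). Without control 2 the values were 3.13 and 3.22 (limma adjusted p = 0.00112 and 0.000643).

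The Cd160 and Btla calls rested on more of the libraries than the others. Cd160 did not pass without ICI-myocarditis heart 1 or 3 (limma adjusted p = 0.0506 and 0.0661). Btla did not pass without ICI-myocarditis heart 1, 2 or 3 (limma adjusted p = 0.0506, 0.0549 and 0.0872), nor without control 1 or 3 (0.0639 and 0.0565). Reads of Cd160 may be shared with Pdzk1 on the opposite strand, whose exons overlap its own by 68 bases, because the counting is not stated to use strand. Pdzk1 itself lay at 127 to 263 normalized counts in controls and 117 to 214 in ICI-myocarditis, with a log2 fold change of -0.15 (adjusted p = 0.798 in limma).

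**Figure D2:**
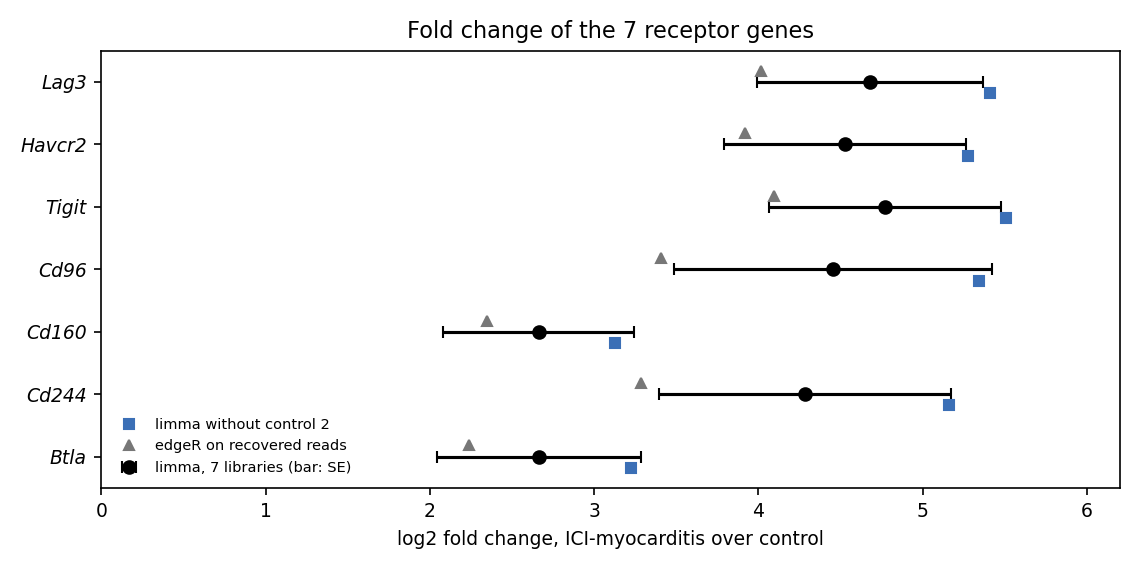
Log2 fold change of each receptor gene (ICI-myocarditis over control) from limma on all 7 libraries (circles, with bars for the standard error), from limma without control 2 (squares) and from edgeR on the recovered reads (triangles). Cd160 and Btla, both at 2.66 with all libraries, lie apart from the other 5 at 4.28 to 4.77, and leaving out control 2 raises all 7.

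The authors' deposited table of fold changes, in which the direction was the same for all 7, gave log2 values of 4.06 for Lag3, 3.96 for Havcr2, 4.13 for Tigit, 3.44 for Cd96, 3.32 for Cd244, 2.38 for Cd160 and 2.28 for Btla. The authors' deposited table gave adjusted p-values from 1.09e-07 for Tigit to 0.0249 for Cd96, and NA for Cd244. These values lie within 0.004 of the log2 ratio of the group means (4.06 for Lag3), in which control 2 weighs more than in the difference of mean logs used above.

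The 7 genes lie on 5 chromosomes of the mouse genome (build GRCm38, GENCODE M21). Tigit (chr16:43648867-43664146, minus strand), Btla (chr16:45224315-45257670, plus strand) and Cd96 (chr16:46035657-46120251, minus strand) share chromosome 16. Lag3 (chr6:124904361-124911705, minus strand) lies 16139 bases from Cd4, its structural relative. Havcr2 (chr11:46454935-46481255, plus strand) lies on the same arm of sequence and strand as its TIM relatives Havcr1 (chr11:46735080-46779578) and Timd4 (chr11:46810800-46844332). Its nearest protein-coding neighbours are Med7 and Gm12169. Cd160 (chr3:96798763-96829351, minus strand) overlaps Pdzk1 as given above. Cd244 (chr1:171559193-171609746, plus strand) sits in the cluster of SLAM family genes, next to Slamf7 and with Ly9 inside its span on the other strand, and shares no exonic base with Ly9.

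Because the receptors moved together, their promoters were read for short motifs of factors active in T cells. RefSeq (build GRCm38.p6) gave a start site for 6 of the 7 (not for Lag3), and the 250 bases before it were searched on both strands. TGTGGT, the core of the motif bound by RUNX factors, which are needed throughout T cell development, occurred in 5 of 6 promoters (all but that of Cd244), against 14.2% of 27025 promoters of the same length. Windows of 4 of these genes are shown because they carry this match. Each is 100 bases, written 5′ to 3′ on the gene's strand, with TGTGGT or its reverse complement ACCACA in capitals.
Havcr2: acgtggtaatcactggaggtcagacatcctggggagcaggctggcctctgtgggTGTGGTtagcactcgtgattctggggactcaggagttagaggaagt
Tigit: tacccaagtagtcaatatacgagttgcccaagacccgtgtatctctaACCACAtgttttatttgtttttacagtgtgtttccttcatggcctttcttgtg
Cd96: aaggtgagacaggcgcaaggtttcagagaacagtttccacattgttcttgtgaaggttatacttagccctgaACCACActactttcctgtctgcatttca
Btla: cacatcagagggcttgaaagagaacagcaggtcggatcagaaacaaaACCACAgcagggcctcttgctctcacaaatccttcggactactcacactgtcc

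The windows are chr11:46454831-46454930 (plus strand) for Havcr2, chr16:43664272-43664371 (minus strand) for Tigit, chr16:46120249-46120348 (minus strand) for Cd96 and chr16:45224112-45224211 (plus strand) for Btla. In them the match began 46, 140, 28 and 178 bases before the start site. Other motifs were less frequent among the receptors: the AP-1 motif TGANTCA was present in 2 of 6 promoters (6.85% of all), the STAT motif TTCNNNGAA in 1 (7.14% of all) and the NFAT core GGAAA in 3 (55.6% of all). The T-box motif GGTGTGA (3.31% of all) occurred in 0 of 6. A motif of IRF factors was also searched and occurred in 0 of 6 (3.045% of all), and the TATA box in 1 of 6 (12.98% of all). The RUNX core was therefore picked out as the most frequent in these promoters among all motifs searched. A match of 6 letters in so few promoters is a description of these sequences and does not show binding. Cd160 and Btla, which rose least, held TGTGGT, and Cd244, which rose more, did not.

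Levels of different genes were compared per kilobase of exon, since longer transcripts yield more reads. Per kilobase, Tigit stood highest in ICI-myocarditis, at 794 ± 159 normalized counts per kilobase (SD, n = 3), followed by Lag3 at 675.5 ± 202 and Havcr2 at 386 ± 204. Cd96 at 83.5 ± 12.5, Cd244 at 80.7 ± 20.1, Cd160 at 71.9 ± 13.8 and Btla at 64.5 ± 15.7 normalized counts per kilobase followed. Between neighbours in that order, the ranges over hearts were separate only for Havcr2 and Cd96, although Tigit exceeded Lag3 and Lag3 exceeded Havcr2 in each of the 3 hearts. In controls Tigit (45.4 ± 57.6), Lag3 (40.6 ± 50.96) and Havcr2 (24.8 ± 31.8) also led, but Cd160 (13.9 ± 11.0) and Btla (13.3 ± 12.8, normalized counts per kilobase, SD, n = 4) came next, above Cd244 (8.08 ± 11.4) and Cd96 (7.71 ± 10.9). All neighbours overlapped among controls. Means of the other 3 controls, without control 2, were 16.7 for Tigit, 15.2 for Lag3, 8.94 for Havcr2, 8.66 for Cd160, 7.12 for Btla, 2.42 for Cd244 and 2.37 for Cd96. With the longest transcript in place of all exons as the length, Cd244 came before Cd96 in ICI-myocarditis.

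As a share of the 7 genes' summed level per kilobase, Cd160 and Btla made up 21.9% ± 6.92 of the controls (SD, n = 4; 14.2% to 29.7%) and 6.45% ± 0.954 of ICI-myocarditis (SD, n = 3; 5.74% to 7.54%). Lag3, Havcr2 and Tigit made up 70.0% ± 8.97 (57.2% to 77.6%) and 85.8% ± 1.58 (84.1% to 87.2%). Neither pair of ranges overlapped. The control shares without control 2 were 24.5% and 68.5%. The shares are a description with no test, and gains of one gene lower the share of the others.

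**Figure D3:**
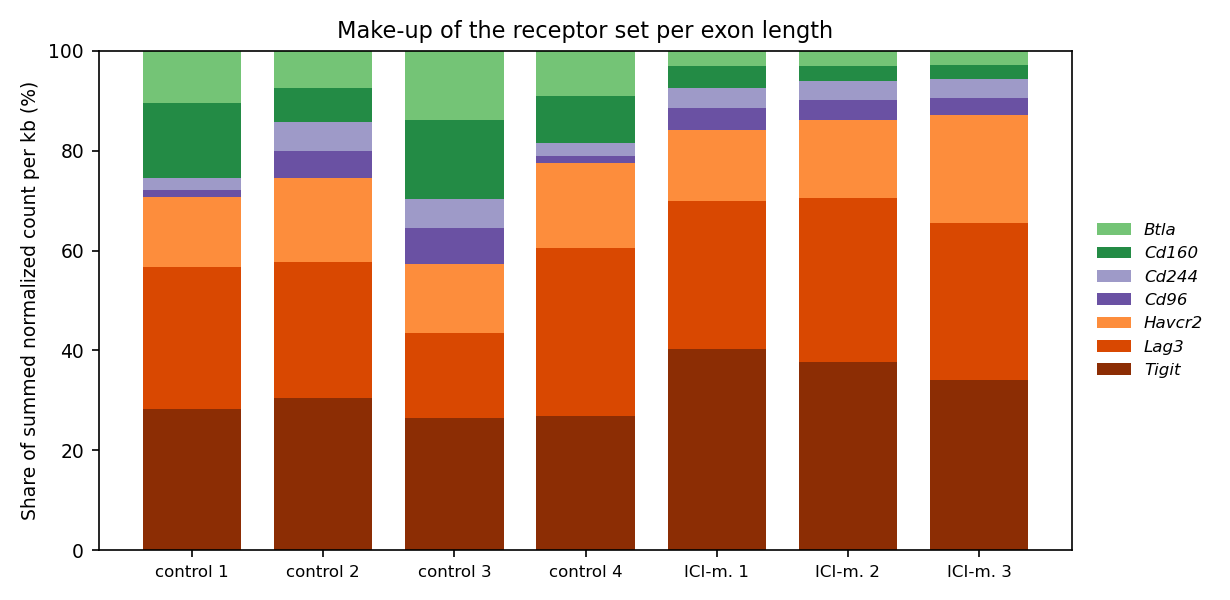
Share of each receptor gene in the summed normalized counts per kilobase of the 7 genes, one stacked bar per library, in percent. Cd160 and Btla together fill 14.2% to 29.7% of the control bars and 5.74% to 7.54% of the ICI-myocarditis bars.

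To set the receptors against the amount of T cell RNA, each was expressed in every library as its log2(normalized count + 1) minus the mean of the same measure over Cd3d, Cd3e, Cd3g and Cd247, the signalling chains of the T cell receptor. These 4 had log2 fold changes of 5.17 (Cd3d), 5.61 (Cd3e), 5.20 (Cd3g) and 2.38 (Cd247), a median of 5.19. Cd247 rose least and was the highest of the 4 in controls 1, 3 and 4, at 73.6, 90.4 and 47.5 normalized counts. The subtracted mean therefore rose by less than each Cd3 gene, and the Cd3 genes alone were not tried as the reference. Sums of the 4 in control 2 and the other controls are given above. On this scale the controls measured 0.75 ± 0.395 (SD, n = 4) for Lag3 and the ICI-myocarditis hearts 0.84 ± 0.294 (SD, n = 3), a difference of 0.09 (exact permutation p = 0.771, adjusted over the 7 genes 0.886). Havcr2 differed by -0.06 (exact permutation p = 0.714, adjusted 0.886), Tigit by 0.18 (exact permutation p = 0.171, adjusted 0.4), Cd96 by -0.14 (exact permutation p = 0.886, adjusted 0.886) and Cd244 by -0.31 (exact permutation p = 0.429, adjusted 0.75). For these 5 the groups overlapped. With pseudocount 5, Cd96 differed by -0.65. Without control 2 the 5 differences were 0.07, -0.06, 0.17, 0.01 and -0.18. Against a wider list of 13 T cell genes they were 0.57 for Lag3, 0.42 for Havcr2, 0.66 for Tigit, 0.35 for Cd96 and 0.17 for Cd244, so that Havcr2, Cd96 and Cd244 turned sign and Lag3 and Tigit came to the threshold without passing it (exact permutation p adjusted over the 7 genes = 0.05 for both). With 4 against 3 animals, a missed threshold does not show that they kept the same ratio.

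Cd160 and Btla lay lower relative to the T cell receptor genes in every ICI-myocarditis heart than in any control. Cd160 measured 0.52, -0.95, 0.42 and -0.45 in controls 1 to 4 and -1.91, -2.16 and -2.06 in ICI-myocarditis. Btla measured 0.35, -0.48, 0.60 and -0.15 in controls and -2.03, -1.82 and -1.69 in ICI-myocarditis. Both differences were -1.93 (exact permutation p = 0.0571, adjusted 0.2, for Cd160, and exact permutation p = 0.0286, the smallest the design allows, adjusted 0.2, for Btla). Without control 2 the differences were -2.21 for Cd160 and -2.11 for Btla, and against the wider list -1.45 for both. None of the 7 genes passed after adjustment over the 7, and 1 (Btla) had an unadjusted p under 0.05. Control 2, the control with the most T cell receptor RNA, was also the control nearest to ICI-myocarditis for both genes. Because that RNA is also what is subtracted, the position of control 2 is not independent of it.

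**Figure D4:**
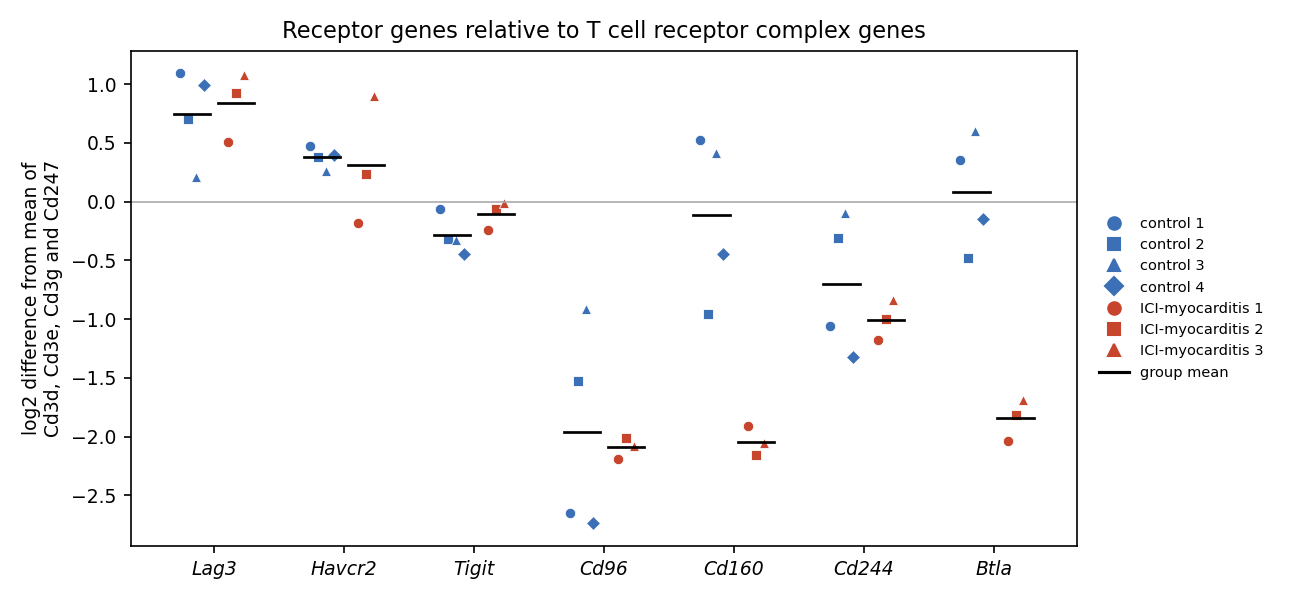
Log2 level of each receptor gene minus the mean log2 level of Cd3d, Cd3e, Cd3g and Cd247, one point per library and a line at each group mean. Cd160 and Btla lie at -0.95 or above in controls and at -1.69 or below in ICI-myocarditis, while the groups overlap for the other 5.

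Among ligands of the receptors, the MHC class II genes, Lgals3, Tnfrsf14 and Cd48 rose, while no gene of the PVR and nectin group passed the test. Of 13 ligand genes tested, 6 rose (5 to 7 when 1 library was left out), none fell and 7 did not pass. Over all genes tested, 11.7% passed as higher. The median log2 fold change of the 13 was 0.93. The MHC class II genes H2-Aa, H2-Ab1 and H2-Eb1, whose products LAG-3 binds, rose by 3.63, 3.78 and 3.91 (limma adjusted p = 0.00331, 0.00360 and 0.00316). Lgals3, which encodes galectin-3, a further LAG-3 ligand and a product of activated macrophages, stood at 82.7, 408, 79.3 and 96.3 normalized counts in controls and at 2961, 2751 and 6100.5 in ICI-myocarditis. Its log2 fold change was 4.85 (limma adjusted p = 0.00275). Fgl1, a LAG-3 ligand made by liver, did not pass the filter on low values and lay at 6.70 to 17.5 in controls and 1.45 to 7.16 in ICI-myocarditis.

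None of the TIM-3 ligand genes passed. Lgals9 had a log2 fold change of 0.64 (limma adjusted p = 0.108), with every ICI-myocarditis heart (1759 to 2050.1 normalized counts) above every control (871 to 1695), and it passed without control 2 (0.79, limma adjusted p = 0.0320). Ceacam1 measured -1.03 (limma adjusted p = 0.112) and passed as lower without control 4 (-1.34, limma adjusted p = 0.0246), with the replicate block (-1.34, limma adjusted p = 0.0386) and with DESeq2 (-1.11, adjusted p = 0.0364). Hmgb1 measured -0.24 (limma adjusted p = 0.430).

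None of the 4 genes of the PVR and nectin group, which encode the ligands of TIGIT and CD96, passed. Pvr stood at 1181, 934, 955 and 1235 normalized counts in controls and at 912, 1066 and 925 in ICI-myocarditis, so the groups overlapped. Its log2 fold change was -0.15 (limma adjusted p = 0.651). Pvrl2 and Pvrl3, which encode nectin-2 and nectin-3, measured -0.15 and -0.18 (limma adjusted p = 0.690 and 0.555). Scaling by library size put Pvr and Pvrl2 at 0.01 each, where it moved the median of all genes from -0.02 to 0.13. Pvrl1, which encodes nectin-1, a ligand of CD96, measured 0.93 (limma adjusted p = 0.208) and passed without control 1 (1.34, limma adjusted p = 0.0379).

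Tnfrsf14 and Cd48, the ligand genes of CD160 with BTLA and of 2B4, rose. Tnfrsf14 stood at 171, 535, 155 and 81.3 normalized counts in controls and at 679, 713 and 1093 in ICI-myocarditis, a log2 fold change of 2.12 (limma adjusted p = 0.0277). That call was lost without ICI-myocarditis heart 1, 2 or 3 (limma adjusted p = 0.0566, 0.0652 and 0.113), without control 1 or 3 (0.0759 and 0.0812) and with edgeR (0.0694). Cd48 stood at 66.5, 222, 142 and 93.8 normalized counts in controls and at 738, 696 and 920.0 in ICI-myocarditis, a log2 fold change of 2.71 (limma adjusted p = 0.00376). It passed in all 17 alternatives. The genes of HVEM and its receptors CD160 and BTLA rose by between 2.12 and 2.66, while Cd244 rose by 4.28 beside 2.71 for its ligand.

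**Figure D5:**
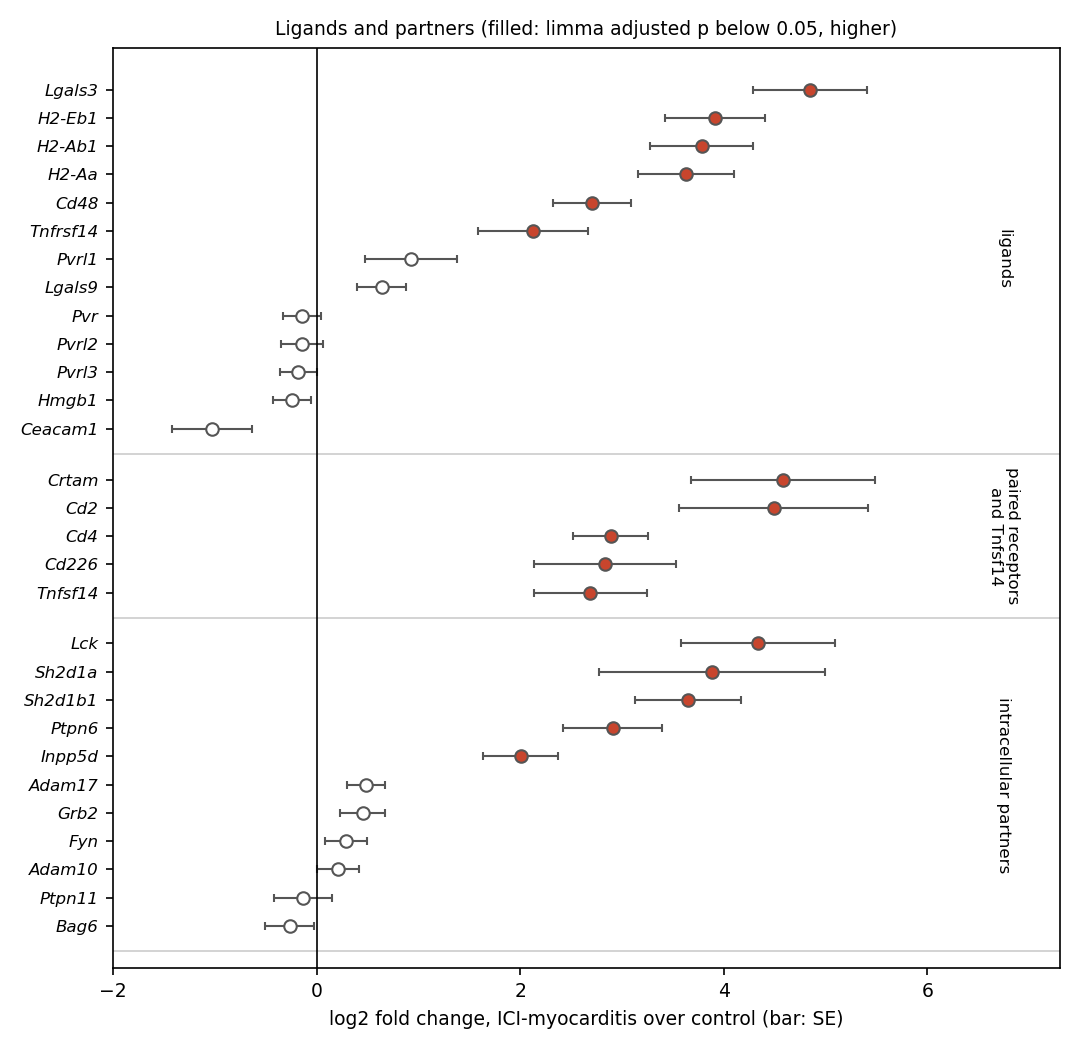
Log2 fold change (ICI-myocarditis over control) of the ligand genes, paired receptors (with Tnfsf14) and intracellular partners tested, with bars for the standard error and filled points for genes that passed limma's test. MHC class II genes, Lgals3, Tnfrsf14 and Cd48 passed, while Pvr, Pvrl1, Pvrl2 and Pvrl3 lie between -0.18 and 0.93 and did not.

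A list of 4 receptors that share ligands or structure with the set, together with the HVEM ligand gene Tnfsf14, also rose, 5 of 5 tested (1 of 5 without ICI-myocarditis heart 3), with a median log2 fold change of 2.89. The share that rose over all genes tested was 11.7%. Cd226, the activating competitor of TIGIT and CD96, stood at 21.2, 253, 51.4 and 96.3 normalized counts in controls and at 546, 375 and 689 in ICI-myocarditis. Its log2 fold change was 2.83 (limma adjusted p = 0.0251), and the call was lost without ICI-myocarditis heart 1, 2 or 3 (limma adjusted p = 0.0675, 0.0502 and 0.0977), without control 3 (0.0760) and with edgeR (0.0547). Cd4, the structural relative of Lag3, rose by 2.89 (limma adjusted p = 0.00316). Crtam, which is related to CD96, rose by 4.58 (limma adjusted p = 0.0106), Cd2, a relative of 2B4, by 4.49 (limma adjusted p = 0.0125) and Tnfsf14, which encodes the HVEM ligand LIGHT, by 2.69 (limma adjusted p = 0.0123). Without ICI-myocarditis heart 3 these last 3 did not pass (limma adjusted p = 0.0552, 0.0552 and 0.0669).

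The balance of the inhibitory receptors against Cd226 was read within each library as a difference of log2(normalized count + 1). Tigit minus Cd226 measured -0.29, -1.06, -1.39 and -3.14 in controls 1 to 4 and 0.26, 0.77 and 0.38 in ICI-myocarditis, above 0 in all 3 ICI-myocarditis hearts and below 0 in every control. Since these counts are not per length, the sign does not order the levels of both genes. The difference between groups was 1.94 (exact permutation p = 0.0571, adjusted over 2 comparisons 0.0857). Cd96 minus Cd226 measured -2.88, -2.27, -1.98 and -5.43 in controls and -1.69, -1.18 and -1.68 in ICI-myocarditis, a difference of 1.62 (exact permutation p = 0.0857, adjusted 0.0857). Neither passed, although the groups did not overlap in either. Without control 2 the differences were 2.08 and 1.91, and without control 4, where Cd96 rests on 1 read, 1.38 and 0.86. With pseudocount 5 the difference for Cd96 was 0.95. Control 4, with Cd226 at 96.3 and Tigit at 10.01 normalized counts, was the farthest from the others in both.

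Among 11 genes tested for proteins that carry the receptors' signals or cut them from the cell surface, 5 rose, none fell and 6 did not pass (median log2 fold change 0.49). By comparison, 11.7% of all genes tested rose. Those that rose are found mainly in blood cells: Ptpn6, the phosphatase SHP-1, by 2.91 (limma adjusted p = 0.00597), Inpp5d, the phosphatase SHIP-1, by 2.00 (limma adjusted p = 0.00823) and Lck, the kinase of the T cell receptor that also binds TIM-3, by 4.34 (limma adjusted p = 0.00698). Sh2d1b1, which encodes the 2B4 adaptor EAT-2, rose by 3.65 (limma adjusted p = 0.00392). Sh2d1a, which encodes the adaptor SAP, rose by 3.89 (limma adjusted p = 0.0441). Only 6 of 17 alternatives kept that call. It was lost when any 1 library other than control 2 was left out (limma adjusted p from 0.0633 without control 4 to 0.129 without ICI-myocarditis heart 1).

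The partners that did not pass are made by most cells. Ptpn11, the phosphatase SHP-2, had a log2 fold change of -0.13 (limma adjusted p = 0.804), which was 0.03 under library size scaling. Bag6, which holds TIM-3 in its inactive state, measured -0.27 (limma adjusted p = 0.513). Adam10 and Adam17, the proteases that shed LAG-3 and TIM-3, measured 0.21 and 0.49 (limma adjusted p = 0.540 and 0.118).

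Regulators associated with long-lasting T cell activation, called exhaustion, rose in 9 of 12 cases (11.7% of all genes tested), with none lower and a median log2 fold change of 2.00. That count was 10 without control 2, 4 without ICI-myocarditis heart 2 or 3, 6 without ICI-myocarditis heart 1, control 1 or control 3, 9 without control 4, and 7 with edgeR or the replicate block. Tox, a driver of that state, stood at 35.3, 274, 38.0 and 61.3 normalized counts in controls and at 759, 735 and 1292 in ICI-myocarditis, a log2 fold change of 3.68 (limma adjusted p = 0.00707). Tbx21, which encodes the effector factor T-bet, rose by 4.49 and Tcf7, which marks T cells that can still renew themselves, by 2.14 (limma adjusted p = 0.00716 for both). Batf rose by 3.11 (limma adjusted p = 0.00775). Eomes measured 3.85 (limma adjusted p = 0.0237) but did not pass with edgeR or DESeq2 (adjusted p = 0.112 in both), nor without any 1 ICI-myocarditis heart (limma adjusted p = 0.0574 to 0.0841) or without control 1 or 3 (0.0709 and 0.0733). Nr4a1 and Nr4a3, early genes of T cell receptor signalling that heart cells also make, measured -0.52 and 0.13 (limma adjusted p = 0.774 and 0.932), and Nr4a3 was -0.38 with edgeR. Their relative Nr4a2 rose by 1.92 (limma adjusted p = 0.0159). That call was lost without ICI-myocarditis heart 2 or 3 (limma adjusted p = 0.0560 and 0.0753).

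Relatives of 2B4 and TIM-3 were read as well. Of 8 tested, 7 rose (11.7% of all genes tested) and 1 did not pass, with a median log2 fold change of 3.57. Slamf8, a SLAM gene of macrophages, rose by 5.41 (limma adjusted p = 0.00563), Slamf7 by 4.66 (limma adjusted p = 0.00866), Ly9 by 3.96 (limma adjusted p = 0.00405), Slamf9 by 3.03 (limma adjusted p = 0.00324) and Cd84 by 2.92 (limma adjusted p = 0.00251). Slamf7 and Ly9 are the genes beside and within Cd244. Timd4, the TIM relative by which resident macrophages take up dying cells, stood at 76.6 to 128.4 normalized counts in controls and 128.3 to 157 in ICI-myocarditis, a log2 fold change of 0.49 (limma adjusted p = 0.261).

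Profiles over the 7 libraries were compared by the root mean square difference of log2(normalized count + 1) after centring each gene, over control and ICI-myocarditis libraries together. Among the receptors the nearest pairs were Cd160 with Btla (0.231), Cd96 with Cd244 (0.244) and Lag3 with Tigit (0.268), while Lag3 and Btla lay 1.11 apart. Over all genes tested, those nearest to Lag3 were Oas3, Batf2 and Kcnn4 (0.206, 0.219 and 0.240). Nearest to Havcr2 were Cd6, Adam8 and Ptpn22 (0.179, 0.193 and 0.220), and nearest to Tigit were Lag3, Havcr2 and Socs1 (0.268, 0.280 and 0.280). Cd2, which encodes a T and NK cell adhesion receptor, was the nearest gene to both Cd96 (0.212) and Cd244 (0.162). Cd160 had Pglyrp1, Amz1 and Orm2 as its nearest genes (0.147, 0.186 and 0.212) and Btla had Ikbke, Arhgap4 and Herc6 (0.143, 0.159 and 0.202). These distances are a description over 7 libraries that share 1 group difference and the high level of control 2.

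Markers of the other cells that make these receptors were read beside them. Each count below is to be set against the 11.7% of all genes tested that passed as higher. Of 6 NK cell markers tested, Klri2 and Klre1 rose (log2 fold change 4.52 and 4.15, limma adjusted p = 0.0128 and 0.0386) and 4 did not pass. Klri2 kept its call in all 17 alternatives. Klre1 kept its call in 7 of 16 alternatives and in none that left out 1 library other than control 2 (limma adjusted p = 0.0643 to 0.112), while Klrb1c passed without control 2 (2.74, limma adjusted p = 0.00932). Klra4 and Klra8 were listed at 0 in every library. Ncr1, the defining receptor of NK cells, stood at 6.05, 44.4, 22.3 and 5.005 normalized counts in controls and at 54.2, 24.6 and 18.3 in ICI-myocarditis, with overlap (a log2 difference of 1.05, limma adjusted p = 0.395). Klra9 went the other way, at 21.2, 184, 69.2 and 47.5 normalized counts in controls and 48.1, 21.7 and 6.11 in ICI-myocarditis. Its log2 difference was -1.62 (limma adjusted p = 0.214). The NK list summed to 36.3 to 117 normalized counts in controls 1, 3 and 4, 336.8 in control 2 and 181.9 to 457 in ICI-myocarditis. Klra9 was the largest part of that sum in every control. Of 7 B cell markers tested 1 rose, a share near that of all genes tested. It was Cd79b, by 1.56 (limma adjusted p = 0.0310). That call was lost without control 1 (0.0814), with the replicate block (0.0534) and without any 1 ICI-myocarditis heart (limma adjusted p = 0.0583 to 0.116). Ms4a1, the gene of CD20, stood at 3.02 to 27.9 in controls and 6.14 to 10.9 in ICI-myocarditis. The B cell list summed to 234 to 553 normalized counts in controls 1, 3 and 4, 668.6 in control 2 and 396 to 579 in ICI-myocarditis. Dendritic cell markers rose in 4 of 7 (5 without control 2, 2 with edgeR, and 1 at the fewest, without ICI-myocarditis heart 3). The 4 were Flt3, Xcr1, Itgax and Ccr7 (log2 fold change 3.82, 3.90, 4.44 and 3.25). The 7 markers summed to 714 to 1203 in controls 1, 3 and 4, 2834 in control 2 and 2716 to 4428 in ICI-myocarditis. Zbtb46, the largest part of that sum in every control, went the other way without passing (-0.47, limma adjusted p = 0.350). It stood at 780, 1432, 722 and 517 normalized counts in controls and at 612, 536 and 591 in ICI-myocarditis. The part of NK, B and dendritic cells in the levels of Cd96, Cd160, Cd244, Btla and Tigit was not tested.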

How the data were processed

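RNA was taken from flash-frozen ventricle, made into libraries with a stranded total RNA kit and sequenced as paired ends, per the labels' protocols. STAR 2.7.3 and the build GRCm38 (mm10) are named in the submitters' processing notes, while the counter, the gene annotation and any use of strand in counting are not given in the sources used here. One deposited table held a signal per gene and library, read counts that the authors divided by a size factor per library. Its other columns are, per the file headers, the log2 fold change, standard error, test statistic (a score), p-value and adjusted p-value of the authors' own comparison. Division of a library's values by the step between them gave whole reads for 100% of values (tolerance 0.1), though for control 1 the step was 1.01, so whole numbers are a weaker sign there. Recovered totals were 20931730 to 39037176 reads, and counting error matters only for genes at a few reads. Rows with date-like names (27) and 2 repeated names were kept and held 0.143% of reads.

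Groups came from the labels (4 control, 3 ICI-myocarditis). The 15258 genes with 10 or more normalized counts in 3 or more libraries entered the test on log2(normalized count + 1) with limma 3.58.1 (R 4.3.3; trend and robust variance), Benjamini-Hochberg adjustment over all of them and a threshold of 0.05. edgeR 4.0.16 on the recovered reads called 2076 genes where limma called 2397, and DESeq2 1.42.0 called 3441. Differences relative to other genes used a two-sided exact permutation test over the 35 splits of 7 libraries, which cannot give a p below 0.0286. The limma and edgeR tests were tried on simulated counts with the same dispersion for every gene and no outlying library, unlike these data. DESeq2 and the permutation tests were not tried in that way. Lengths and positions are from GENCODE M21 (GRCm38). The text names the 7 receptors, members of listed gene groups that bind or signal through them, cell type markers, and the 3 genes of nearest profile, passing over predicted genes. Members, lists and tests were chosen with earlier results of these data known, and counts over lists are descriptions. Library size scaling, also tried, was chosen after seeing the data. Csf1r, Pdcd1, Ms4a1 and Pdzk1 are named for a result they bear on.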

Additional observations from a re-analysis of the deposited data

Results flagged for a closer look

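Of 16 results checked within the 4 controls, 1 had a value far from the rest. For Lag3, control 2 stood above the next control by 0.845 of the range of the 4 controls on the log2 scale, beyond the 95% critical value of Dixon's test for 4 values. Its 247 normalized counts compare with 27.9 to 39.3 in the other controls. Chance picks out about 1 in 20 such groups. Without control 2 the log2 fold change of Lag3 was 5.41 in place of 4.68 (limma adjusted p = 1.01e-05 in place of 0.00411).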

How the results depend on the processing

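Over 17 alternatives, the 7 receptors kept their direction in all, and 110 of 119 values kept their side of the threshold; the other 9 fell short when 1 library was left out. Members called ranged from 3 (without ICI-myocarditis 3) to 7, and genes called from 986 (without ICI-myocarditis 3) to 3441 (DESeq2), with 2397 in the main fit. Leaving out control 2 gave 3340. With the replicate block (replicates 1 to 3, control 4 unpaired) 1780 genes and all 7 receptors were called, but the numbers do not pair the libraries (correlations of deviations -0.271, -0.206 and -0.0784). Relative to the T cell receptor complex genes, small differences turned sign. Leaving out 1 library moved Lag3 from -0.0913 (without control 3) to 0.253 (without ICI-myocarditis 1), with -0.03 without ICI-myocarditis 3, Havcr2 from -0.35 (without ICI-myocarditis 3) to 0.19 (without ICI-myocarditis 1) and Cd96 from -0.40 (without control 4) to 0.21 (without control 3), with 0.0073 without control 2. With pseudocount 5 Havcr2 was 0.026 and Cd96 was -0.65 (exact permutation p adjusted over the 7 = 0.133). That Cd96 difference was larger than when any 1 library was left out. Against the wider T cell list Havcr2, Cd96 and Cd244 became 0.42, 0.35 and 0.17, while Lag3 and Tigit were 0.57 and 0.66 and Cd160 and Btla -1.45 each (exact permutation p adjusted over the 7 = 0.05 for these 4). Among 79 other named genes 90 values lost and 7 gained a call. Genes near 0 turned sign: library size scaling gave Pvr 0.0139, Pvrl2 0.0134 and Ptpn11 0.0288, and the replicate block gave Ptpn11 0.0042. Leaving out 1 library moved Ptpn11 from -0.31 (without control 2) to 0.0042 (without control 4), Nr4a1 from -1.57 (without control 3) to 0.0347 (without control 1) and Nr4a3 from -0.57 (without control 3) to 0.71 (without control 1), with -0.16 without ICI-myocarditis 3. Nr4a3 was -0.38 with edgeR and -0.37 with DESeq2. The cause was not tested, except that fewer libraries enter each fit that leaves one out. Depth limits Cd96 in controls 1 and 4, with 2 reads and 1 read.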
